A study of Mus musculus with 22 samples.

Results

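Apoc1 and 9 further apolipoprotein genes, Apoe, Apoc2, Apoc4, Apoa1, Apoc3, Apoa2, Apob, Apom and Apoh, were followed through the RNA and DNA methylation of mouse embryos that lacked the zinc finger protein Rlf. These 10 genes, of 14183 genes tested for expression and 20298 start-site windows tested for methylation, were chosen by name with the RNA difference between mutant and wild-type livers in view, in particular that of Apoc1, so that their RNA values are given below as a description and support nothing. No methylation value was a stated ground for choosing them, but the members were listed with earlier results of these data known. The apolipoproteins were described in every library of both assays.

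All animals were FVB/NJ mice of Line3, homozygous for an array of GFP transgenes under the alpha-globin promoter of human with its HS-40 enhancer, a reporter that is read in erythroid cells. Mutants were homozygous for MommeD28, a null allele of Rlf that arose from ENU mutagenesis and is kept as a single mutant line, and the controls were Rlf wild type from the same heterozygous matings. Whole genome bisulphite sequencing (WGBS) covered 12 libraries, 2 wild types and 2 mutants each of the whole embryo at E10.5 and of the liver at E14.5 and E18.5. RNA-seq covered 3 wild-type and 3 mutant E14.5 livers. The E10.5 embryos were all male and the E18.5 livers all female, whereas each genotype had 1 male and 1 female E14.5 liver in WGBS and 2 males and 1 female in RNA-seq.

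Apolipoproteins are the proteins of lipoprotein particles. Apob forms the scaffold of chylomicrons and very low density lipoproteins, Apoa1 and Apoa2 are the main proteins of high density lipoproteins, and Apoe is a ligand through which receptors take particles up. The small C apolipoproteins exchange between particles: Apoc2 activates lipoprotein lipase, Apoc3 and Apoc1 slow the clearance of triglyceride-rich particles, and Apoc4 is a minor member encoded next to Apoc2. Apom carries sphingosine-1-phosphate, and Apoh, also called beta-2-glycoprotein I, binds phospholipids. The genes are transcribed mainly in hepatocytes, and in the mouse the Apoe, Apoc1, Apoc4 and Apoc2 genes lie side by side on chromosome 7, and Apoa1, Apoc3, Apoa4 and Apoa5 on chromosome 9.

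The RNA libraries held 12928313 to 14621004 counts assigned to genes. In WGBS, 13032403 CpGs had at least 6 reads in all 12 libraries, and the member windows were read 13.6 to 48.2 times per CpG. Methylation (%mCG, the percentage of reads over CpGs that were methylated) was higher in mutants over these 13032403 CpGs, a difference that was not tested. The paper, from averages over windows of the genome, reports no effect of Rlf loss on the global level. Here the difference was 2.36 points in E10.5 embryo and 2.35 points in E14.5 liver. The latter was 1.34 points without wild-type replicate 1 and 3.36 points without wild-type replicate 2. In E18.5 liver the difference of 1.92 points rested on 1 library that stood apart, mutant replicate 1, at 64.6 %mCG beside 60.6 to 60.9 %mCG in the other 3, and was −0.0284 points without it and 3.86 points without mutant replicate 2. Rlf transcripts were present at similar levels in both genotypes, 68.9 to 72.3 CPM (counts scaled to library size, in units of 1e6 counts) in wild type and 67.6 to 79.8 CPM in mutants, which for a point-mutation allele does not check the labels. The labelled tissue of the RNA libraries carried its defining hepatoblast transcripts, with Alb at 23322 to 34945 CPM and Afp at 27143 to 37862 CPM in the 6 livers.

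Of the 10 apolipoprotein genes, Apoc1 had the largest difference in expression between genotypes and was lower in mutant livers. Apoc1 (ENSMUSG00000040564, mm9 chromosome 7, 20274833 to 20278007, minus strand) was counted 2513, 2193 and 2212 times in the 3 wild-type livers and 570, 731 and 591 times in the 3 mutant livers. The 3 mutants lay far below the 3 wild types and the groups did not overlap. In CPM, the wild-type values were 192, 145 and 155 and the mutant values 44.2, 52.7 and 41.5. The mean fell from 163.9 ± 24.6 to 46.2 ± 5.86 CPM (SD, n = 3 each), 3.55 times higher in wild type, and the fitted log2 difference was −1.83 ± 0.109 (SE). Leaving out any 1 of the 6 libraries left this difference between −1.93 and −1.70. The exons of Apoc1 overlapped no other annotated gene.

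Apoe, the neighbour of Apoc1, moved the other way. Its counts were 22071, 23269 and 21214 in wild type and 26278, 32538 and 27039 in mutants, so that the lowest mutant lay above the highest wild type. On the CPM scale the mean was 1570 ± 102 in wild type and 2095 ± 230 in mutants (SD, n = 3 each), a fitted log2 difference of 0.42 ± 0.083 (SE). Relative to the summed counts of hepatoblast markers other than Alb, which were higher in mutants on average, the log2 difference of Apoe was 0.24 and that of Apoc1 −2.0. Afp remained in this sum, and the hepatoblast sum given below includes Alb.

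Apoc1 and Apoe were the 2 of 10 members that passed an adjusted p of 0.05 (edgeR quasi-likelihood test, Benjamini-Hochberg), against 1.39% of all genes tested (197 of 14183), and the 2 whose groups did not overlap, against 20.3% of all genes. This contrast was in view when the genes were listed, and nothing is read from that count. With the replicate number as a block, 460 genes passed, and the members that passed were again 2. Without wild-type replicate 2 or 3 or mutant replicate 1 or 2, Apoe was not among them.

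The other C apolipoproteins overlapped between genotypes in CPM. Apoc2, the cofactor of lipoprotein lipase, had 5161, 5107 and 5161 counts in wild type and 3908, 4773 and 4484 in mutants, a log2 difference of −0.18 ± 0.076 (SE). In CPM the 2 groups of Apoc2 overlapped, since the lowest wild type (337) lay under the highest mutant (344). Apoc4 had 485, 434 and 531 counts in wild type and 499, 513 and 476 in mutants, a log2 difference of 0.09 ± 0.103 (SE). Apoc4 and Apoc2 share 112 annotated exon bases, 24.1% of Apoc4 and 12% of Apoc2, and reads over them could not be given to either gene. Apoc3 was counted only 19, 21 and 28 times in wild type and 11, 29 and 16 times in mutants, and its log2 difference of −0.23 ± 0.333 (SE) rests on these few reads, being −0.68 without mutant replicate 2 and 0.0041 without mutant replicate 1. Whether reads of Apoc3 were lost when reads were assigned to gene models was not tested, so its low value is a count and not shown to be a low expression level.

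The structural apolipoproteins also overlapped between genotypes. Apoa1, the main protein of high density lipoproteins, had 32399, 27019 and 29735 counts in wild type and 27926, 32660 and 29680 in mutants, a log2 difference of 0.06 ± 0.101 (SE). Apoa2 had 17044, 16855 and 17449 counts in wild type and 14950, 19430 and 16699 in mutants, a log2 difference of 0.04 ± 0.0854 (SE). The counts of these high density lipoprotein genes spread as widely within a genotype as between genotypes. Apob, the scaffold of the larger particles, ranged from 13717 to 15272 counts in wild type and from 12371 to 23493 in mutants, a log2 difference of 0.35 ± 0.189 (SE), with the highest and the lowest of all 6 values in mutant replicates 1 and 2. Without mutant replicate 1 the log2 difference of Apob was 0.05, and without mutant replicate 2 it was 0.57. Apom had 5762 to 6300 counts in wild type and 4874 to 6616 in mutants, a log2 difference of −0.05 ± 0.0844 (SE). Apoh had 5674 to 6754 counts in wild type and 5489 to 6745 in mutants, a log2 difference of −0.01 ± 0.104 (SE).

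**Figure D1:**
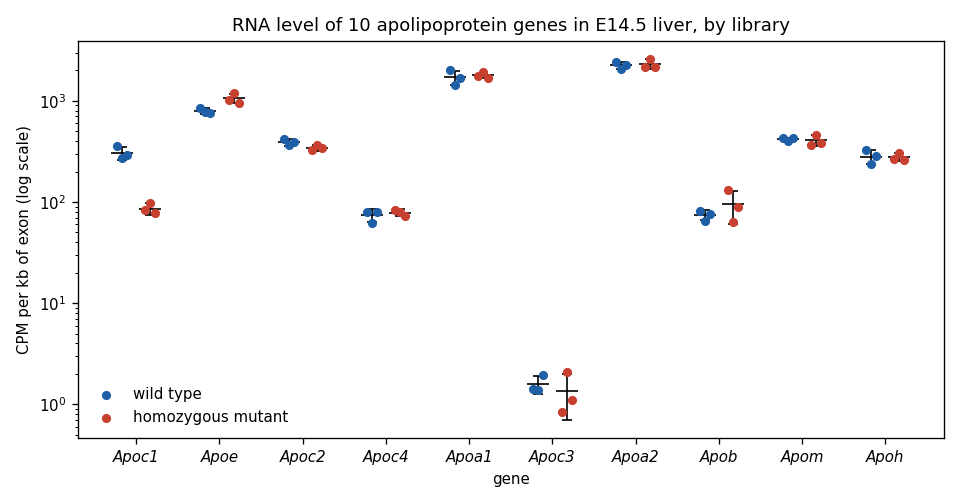
RNA level of the 10 apolipoprotein genes in E14.5 liver, as CPM per kb of exon on a log scale, with 1 point per library and black bars for the mean ± SD of 3 wild types or 3 mutants. Apoc1 drops from a mean of 305 to 86.0 CPM per kb, Apoe rises from 793 to 1058 CPM per kb, and the points of the other genes overlap between genotypes.

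Per kb of exon, the levels of the members in wild-type liver fell in the order Apoa2 (2258 CPM per kb), Apoa1 (1711), Apoe (793), Apom (419), Apoc2 (391), Apoc1 (305), Apoh (281), Apob (74.3) and Apoc4 (73.9), with Apoc3 listed at 1.58 under the limit on its counts given above. Neighbours in this order whose 3 wild-type values overlapped were Apom and Apoc2, Apoc1 and Apoh, and Apob and Apoc4. In mutants Apoc1 stood at 86.0 CPM per kb, and its 3 values overlapped those of Apob (mean 94.8) and Apoc4 (mean 78.4). Of the 2 further genes of the chromosome 9 cluster, Apoa4, which shares 632 exon bases (34.8%) with Gm10680, had 1 read in 1 of the 6 livers and none in the other 5, and Apoa5 had a mean of 1.17 CPM in wild type and 0.612 CPM in mutants. Both were below the filter on low counts.

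A bulk liver library cannot tell fewer cells of a type from less RNA per cell, so markers of the cell types of fetal liver were read beside Apoc1. The summed hepatoblast markers were at 62172 to 73298 CPM in wild type and 75751 to 87770 CPM in mutants, higher in each mutant, whereas Apoc1 was lower. Of the 19 hepatoblast markers tested, 1 rose, Trf, which encodes transferrin (log2 difference 0.46), 17 differences were positive (median 0.13) and 8 markers had an unadjusted p under 0.05. Over all genes, 1.39% were called and 14.6% had an unadjusted p under 0.05, the shares to set beside this and each list below. Summed erythroid markers ranged from 31458 to 57014 CPM in wild type and from 38630 to 41885 CPM in mutants, with 0 of 15 called by edgeR, 1 with an unadjusted p under 0.05 and 14 of 15 differences negative (median log2 difference −0.15). Summed macrophage markers were at 1058 to 1106 CPM in wild type and 985 to 999 CPM in mutants, where 1 of 17 fell, Cd5l, a secreted protein of tissue macrophages (log2 difference −1.19), and 7 had an unadjusted p under 0.05. Of these 17 differences, 8 were positive and 9 negative (median −0.016). Granulocyte markers summed to 886 to 1260 CPM in wild type and 729 to 843 CPM in mutants, and 6 of 10 fell: Elane, Prg2, S100a8, S100a9, Camp and Ltf, with log2 differences of −0.76, −1.27, −0.67, −0.69, −0.89 and −0.86, and 7 had an unadjusted p under 0.05. Summed megakaryocyte markers were at 553 to 588 CPM in wild type and 670 to 734 CPM in mutants, where 1 of 8 rose, Pf4 (log2 difference 0.40), and 7 had an unadjusted p under 0.05. None of the 12 endothelial and 12 mesenchymal markers passed edgeR's test, and 5 and 4 of them had an unadjusted p under 0.05. Differences were positive for 10 of 12 endothelial (median 0.16), 10 of 12 mesenchymal (0.15) and 8 of 8 megakaryocyte markers (0.30). Of the 10 granulocyte differences, 9 were negative and 1 positive (median −0.68). Apoc1 and Apoe are also made by macrophages. The part of these cell types in the values of Apoc1 and Apoe was not tested.

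Genes that act on the same particles were read in the same RNA test, in which 1.39% of all genes were called and 14.6% had an unadjusted p under 0.05. Among the 10 other apolipoprotein genes tested of 19 listed, 1 rose and 1 fell. Clu, also called apolipoprotein J, had a log2 difference of 0.54 ± 0.0756 (SE), from 108.9 to 157.8 CPM. Saa4, a constitutive serum amyloid A protein of high density lipoproteins, had a log2 difference of −0.44 ± 0.0868 (SE), from 34.4 to 25.3 CPM. Of 23 genes of particle assembly and remodelling, 1 fell, Lcat, which esterifies cholesterol on high density lipoproteins (72.9 to 56.2 CPM, log2 difference −0.38 ± 0.0807). Of 19 receptors and their partners, 1 rose, Vldlr, a receptor for Apoe-bearing particles (15.7 to 28.1 CPM, log2 difference 0.83 ± 0.148). In the same edgeR test, 6 of the 10 other apolipoprotein genes had an unadjusted p under 0.05. So had 6 of the 23 assembly and remodelling genes and 5 of the 19 receptors and partners. None of 25 transcription factors and nuclear receptors known to act on these promoters passed edgeR's test (5 had an unadjusted p under 0.05), and neither did any of 9 protein-coding neighbours on chromosome 7 or of 8 on chromosome 9 (3 and 2 had an unadjusted p under 0.05). The median log2 difference was 0.01 over the 10 members, −0.01 over the other apolipoproteins, 0.03 over assembly and remodelling genes, 0.11 over receptors and 0.07 over regulators, beside −0.00 over all genes tested.

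The 5 genes whose log2 CPM ran most nearly in parallel with that of Apoc1 over the 6 livers, of 9728 genes with a mean of at least 10 CPM, were Ivd (Pearson r = 0.996), Masp2 (0.992), Rfc5 (0.991), Slc27a5 (0.990) and Snrnp40 (0.989). These coefficients are a description over 6 libraries that share the split by genotype. The size of the difference varied widely among them: the log2 difference was −1.43 for Masp2, which encodes a protease of the lectin complement pathway, and −1.02 for Slc27a5, which encodes a bile acid ligase, against −0.27 for Ivd, −0.26 for Rfc5 and −0.16 for Snrnp40.

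The CpGs around Apoc1 are shown because they carry the methylation result that follows. The sequence was read from the NCBIM37 (mm9) genome on the strand of the gene, 5′ to 3′, with CpGs in capitals, and this stretch was chosen after its values were seen. It is the coding exon 3 of Apoc1 (20277237 to 20277384) with its intronic flanks, chr7:20277150-20277430 on the minus strand, with 18 CpGs in 281 bases.
Apoc1 exon 3 and flanks: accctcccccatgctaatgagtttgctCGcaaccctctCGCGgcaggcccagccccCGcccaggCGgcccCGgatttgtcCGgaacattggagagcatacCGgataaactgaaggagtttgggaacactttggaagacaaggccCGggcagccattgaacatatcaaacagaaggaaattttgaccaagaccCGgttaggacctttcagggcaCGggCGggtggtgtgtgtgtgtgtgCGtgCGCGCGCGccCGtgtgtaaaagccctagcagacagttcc

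The 250 bases upstream of the start site are given in the same way for Apoe, the low-methylated neighbour (chr7:20284516-20284765, minus strand, 7 CpGs), and for Apoa1, a CpG-poor start site on the other cluster (chr9:46036413-46036662, plus strand, 3 CpGs). The Apoc1 stretch above lies within the gene, so its number of CpGs is not a like measure. The 250 bases upstream of Apoc1 held 4 CpGs.
Apoe upstream: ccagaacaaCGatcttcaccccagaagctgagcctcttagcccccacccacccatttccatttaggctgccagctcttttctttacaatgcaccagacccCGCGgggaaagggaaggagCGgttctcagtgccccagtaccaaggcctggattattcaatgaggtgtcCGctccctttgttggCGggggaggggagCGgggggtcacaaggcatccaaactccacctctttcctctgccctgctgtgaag
Apoa1 upstream: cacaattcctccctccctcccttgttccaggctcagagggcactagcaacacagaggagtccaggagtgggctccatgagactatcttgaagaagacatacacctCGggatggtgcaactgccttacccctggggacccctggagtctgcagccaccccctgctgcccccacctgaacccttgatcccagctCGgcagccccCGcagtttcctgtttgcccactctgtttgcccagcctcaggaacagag

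The reference windows of 1 kb on either side of the start site held 50 CpGs at Apoe, 48 at Apoc1, 45 at Apob, 37 at Apom and 19 to 24 at the other 6 members, beside a median of 61 over all windows. In the 250 bases upstream, both strands read, the TATA box letters TATAAA were found at Apoc3, Apoa2 and Apob (12.3% of 22342 genes), and the nuclear receptor letters AGGTCA at Apoc2, Apoc4, Apoc3 and Apoh (12.3% of genes). Neither set of letters was found in this stretch of Apoc1, Apoe, Apoa1 or Apom. These matches describe the sequences and say nothing of binding.

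Methylation around the Apoc1 start site was higher in mutants in all 3 tissues. In the window chr7:20277007-20279007, 30 CpGs were measured. At E10.5, the wild-type embryos had 45.0 and 56.0 %mCG and the mutants 74.3 and 74.8 %mCG. In E14.5 liver, the wild types had 46.7 and 46.6 %mCG and the mutants 72.2 and 71.9 %mCG. In E18.5 liver, the wild types had 56.1 and 46.2 %mCG and the mutants 73.8 and 70.8 %mCG. All 6 mutant libraries lay above all 6 wild-type libraries, in embryo and in liver alike.

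The mean difference at Apoc1 was 24.1 points in E10.5 embryo (50.5 ± 7.75 against 74.6 ± 0.359 %mCG, SD, n = 2 each), with an adjusted p of 0.0119 over all windows (edgeR quasi-likelihood test on methylated and unmethylated reads, Benjamini-Hochberg). It was 25.4 points in E14.5 liver, with an edgeR adjusted p of 0.0197. In E18.5 liver it was 21.2 points (51.1 ± 6.97 against 72.3 ± 2.11 %mCG, SD, n = 2 each), with an edgeR adjusted p of 0.0510, outside the threshold of 0.05. Averaged over the tissues the difference was 23.5 points, with an edgeR adjusted p of 9.34e-05. When genotypes were exchanged within each tissue, the exact permutation test (two-sided) gave p = 0.00926 for this mean, the smallest the 12 libraries allow. The median difference over all windows was 0.409 points, and 5 of 20298 windows had a larger mean difference than Apoc1.

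The call at Apoc1 within a single tissue rested on 2 libraries a group. The E10.5 call was lost without wild-type replicate 1, mutant replicate 1 or mutant replicate 2, where the difference was 18.6 to 29.6 points over all libraries left out. The E14.5 call was lost without any 1 of the 4 E14.5 livers, although the difference stayed at 25.2 to 25.5 points. In E18.5 liver, the difference ranged from 16.2 to 26.1 points as 1 library was left out, and it was 19.7 points without mutant replicate 1, the library that stood apart, without which the average over tissues was 23.0 points. Over the 19 alternatives the adjusted p (edgeR) ran from 6.46e-06 to 0.180 at E10.5, from 8.50e-07 to 0.232 at E14.5 and from 0.000105 to 0.50 at E18.5, and the average over tissues passed in all 18 alternatives that gave it (1.58e-12 to 0.000940).

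Apoc1 was the 1 member of 10 called at E10.5 (0.626% of all windows called), at E14.5 (0.148% of windows) and over the average of the tissues (4.71% of windows). At E18.5, 0 of the 10 passed edgeR's test (0.177% of windows), while Apoc1 alone among the members, and 1859 windows in all, had an unadjusted p under 0.05. The other 9 members differed by −4.45 to 5.32 points within a tissue and by −1.95 to 4.27 points on average, and the lowest of their adjusted p values from edgeR was 0.265. Both mutants lay above both wild types in all 3 tissues at 1 member, Apoc1, and at 7.55% of all windows.

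**Figure D2:**
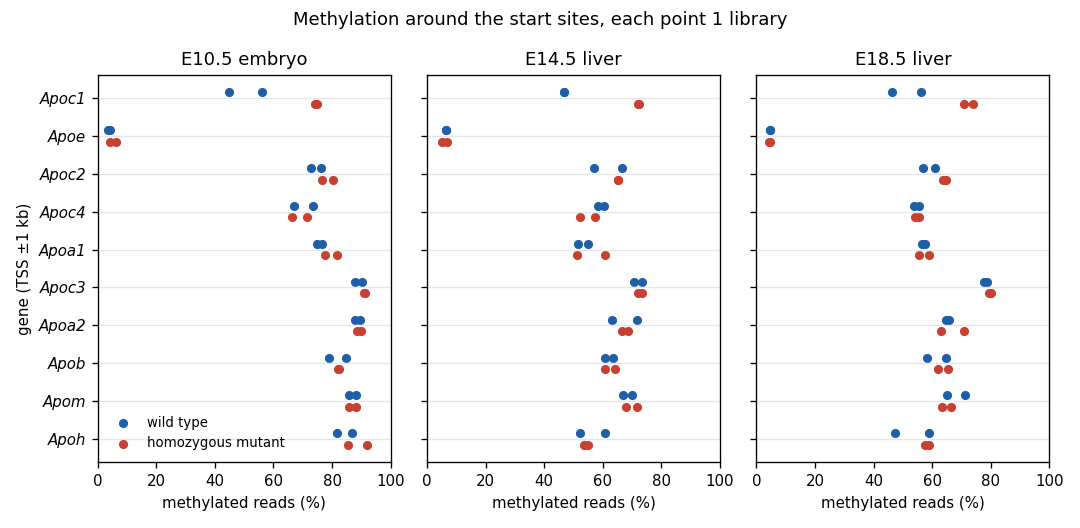
Methylated reads (%) within 1 kb of the start sites of the 10 genes in embryos (E10.5) and in E14.5 and E18.5 livers, with each point 1 library and wild types and mutants in separate colours. At Apoc1 the mutants sit at 70.8 to 74.8% and the wild types at 45.0 to 56.1%, Apoe lies at 3.7 to 6.7% in every library, and the other genes show overlapping or closely spaced genotypes.

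The start-site windows of the other members on chromosome 7 differed strongly from each other in level. Apoe, whose start site (20284515) lies upstream of that of Apoc1, was almost unmethylated over 41 CpGs. Apoe had 4.1 and 3.7 %mCG in wild-type and 4.1 and 6.4 %mCG in mutant embryos, 6.6 and 6.5 against 6.7 and 5.3 %mCG in E14.5 liver, and 4.6 and 4.6 against 4.4 and 4.7 %mCG in E18.5 liver. Its mutants and wild types were interleaved in both livers. Apoc2 (start site 20263290, 14 CpGs) had 72.7 and 76.1 %mCG in wild-type and 76.5 and 80.3 %mCG in mutant embryos, 57.1 and 66.4 against 65.3 and 65.2 %mCG in E14.5 liver, and 60.8 and 56.9 against 63.6 and 64.7 %mCG in E18.5 liver. Apoc4 (start site 20266765, 13 CpGs) ranged from 66.3 to 73.5 %mCG in embryos, from 52.4 to 60.3 %mCG in E14.5 liver and from 53.8 to 55.4 %mCG in E18.5 liver.

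On chromosome 9 the Apoa1 window (start site 46036663, 22 CpGs) had 74.9 and 76.7 %mCG in wild-type and 77.6 and 81.8 %mCG in mutant embryos, 51.7 and 55.1 against 60.7 and 51.3 %mCG in E14.5 liver, and 56.7 and 57.4 against 58.9 and 55.5 %mCG in E18.5 liver. The livers of both genotypes overlapped. Apoc3 (start site 46043382, 21 CpGs) had the highest mean of the members in the livers of either genotype, at 70.7 to 73.4 %mCG at E14.5 and 77.8 to 80.0 %mCG at E18.5, and had 87.8 to 91.3 %mCG in embryos. In mutant E14.5 liver its mean of 72.7 %mCG lay close to the 72.0 %mCG of Apoc1. The members outside the clusters were, like Apoc3, more methylated in embryos than in either liver. Apoa2 (chromosome 1, 173155213, 9 CpGs) had 87.8 to 89.8 %mCG in embryos, 63.2 to 71.7 %mCG in E14.5 liver and 62.9 to 70.9 %mCG in E18.5 liver. Apob (chromosome 12, 7984454, 42 CpGs) had 79.1 to 84.9, 60.8 to 64.1 and 58.2 to 65.3 %mCG in the same order, and Apom (chromosome 17, 35268995, 32 CpGs) had 85.8 to 88.3, 66.8 to 71.7 and 63.4 to 71.1 %mCG. Apoh (chromosome 11, 108256607, 12 CpGs) had 81.5 to 91.8, 52.2 to 60.9 and 47.3 to 59.0 %mCG.

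Single CpGs were then read along Apoc1. Both mutants were above both wild types at 24 of the 30 CpGs in E10.5 embryo (17.7% of all CpGs), at 27 of 30 in E14.5 liver (21.4%) and at 25 of 30 in E18.5 liver (19.9%). In all 3 tissues together this held at 19 of 30 CpGs, against 1.22% of all CpGs, and at none of the 30 were both mutants below both wild types in any tissue. Of all CpGs, 11.2% were below in this way in E10.5 embryo, 10.2% in E14.5 liver and 10.2% in E18.5 liver. Past the window, 21 CpGs were measured as far as the end of the gene. Both mutants were above both wild types at 4 of these in embryos, 8 in E14.5 liver and 10 in E18.5 liver, at none in all 3 tissues, and below at 5, 2 and 2. These counts stand beside the shares of all CpGs just given for each direction. Of these 21 CpGs, 1 was lower in mutants in all 3 tissues, at 20274934 in exon 4, with differences of −19.6, −20.9 and −15.3 points. It is a single CpG named after its values were seen. The share of all CpGs lower in all 3 tissues was not counted. Neighbouring CpGs share reads and are not independent.

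The CpGs of exon 3 and its flanks, printed above, carried a large share of the reads. Over these 18 CpGs the wild-type embryos had 42.9 and 58.8 %mCG and the mutants 73.3 and 75.8 %mCG. In E14.5 liver the wild types had 49.8 and 48.3 %mCG and the mutants 78.2 and 83.6 %mCG, and in E18.5 liver the wild types had 63.7 and 48.6 %mCG and the mutants 83.6 and 84.3 %mCG. The differences were 23.7, 31.9 and 27.8 points, and the lowest mutant exceeded the highest wild type in each tissue. The 3 CpGs with the largest mean differences were at 156 bases downstream of the start site in intron 1 (42.4 points), at 605 bases in intron 2 (42.3 points) and at 642 bases in exon 3 (39.1 points). Those in introns 1 and 2 had as few as 7 reads in a library. At the CpG in intron 1, mutant embryo replicate 2 (28.6%) lay close to wild-type embryo replicate 2 (26.7%). At the CpG in exon 3, the wild-type embryos had 11.1 and 25% of reads methylated and the mutants 76.2 and 80.0%, from 10 to 21 reads each.

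The 2 sides of the start site were not alike in their values. The 25 CpGs in the 1 kb downstream differed by 23.6 points in embryos, 29.2 points in E14.5 liver and 26.0 points in E18.5 liver. The 5 CpGs in the 1 kb upstream differed by 24.7 points at E10.5 (38.6 and 40.6 against 63.2 and 65.4 %mCG), by 8.98 points in E14.5 liver (27.6 and 28.2 against 40.1 and 33.7 %mCG) and by 7.20 points in E18.5 liver (28.1 and 26.2 against 38.1 and 30.6 %mCG). Mutants remained above wild types upstream in each tissue. Whether the upstream difference itself varied between tissues was not tested.

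**Figure D3:**
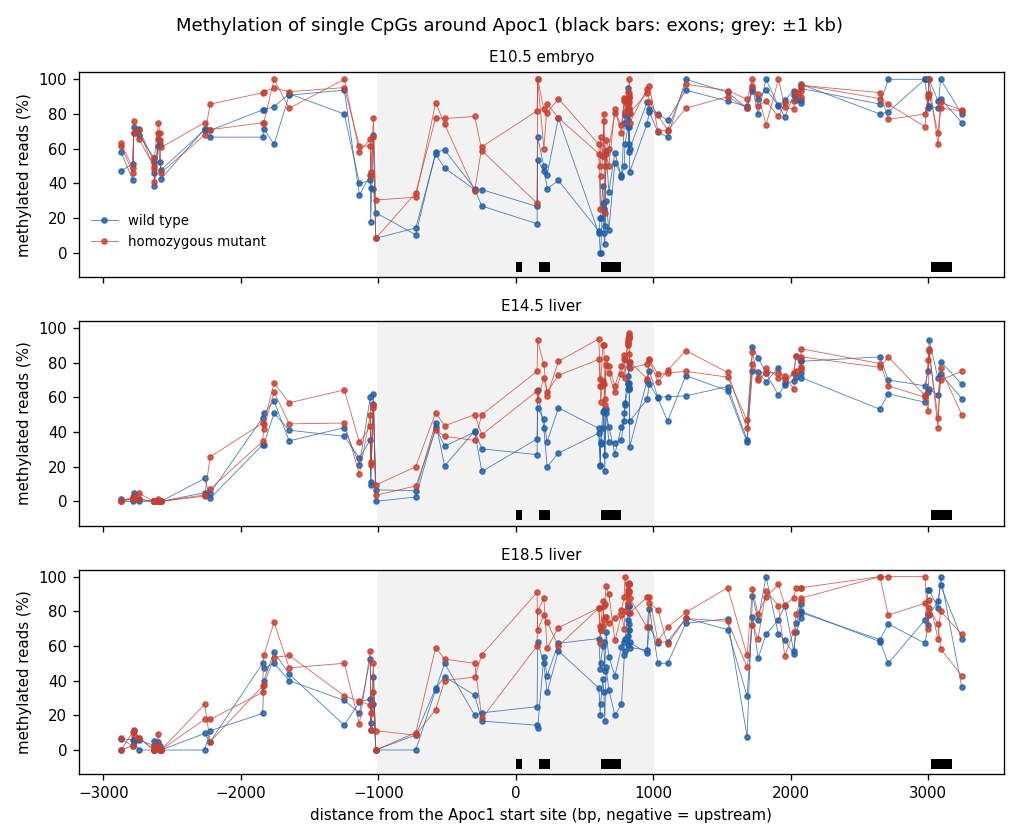
Methylated reads (%) at single CpGs around Apoc1 against the distance from its start site in bp, 1 panel per tissue, with a line per library, grey for the window of 1 kb on either side and black bars for exons. Over the 25 CpGs of the window downstream of the start site the mutants are higher by 23.6, 29.2 and 26.0 points on pooled reads, while of the 21 CpGs further downstream both mutants are above both wild types at 4, 8 and 10 and below at 5, 2 and 2. Of all CpGs, 17.7, 21.4 and 19.9% are above and 11.2, 10.2 and 10.2% below in the same order.

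The wild types also showed how these windows differed between embryo and liver. Tissue and age change together in this comparison, and sex in part, so that they cannot be told apart. Over all CpGs used, the wild types had 70.4 %mCG in E10.5 embryo and 56.7 %mCG in E14.5 liver. The median difference was −0.495 points over all start-site windows and −18.5 points over all 1 kb tiles of the genome, read below. In wild type, 9 of 10 members differed between E14.5 liver and E10.5 embryo, against 54.7% of all windows called, 8 lower in liver (39.3% of windows) and 1 higher (15.4%). Apoh fell by 27.6 points (edgeR adjusted p = 0.000120), Apoa1 by 22.4 points, Apoa2 by 21.2 points, Apob by 19.8 points, Apom by 18.6 points and Apoc3 by 17.0 points, each with an edgeR adjusted p of 0.000120 or lower. With the window of Apoh set at the outermost annotated 5′ end, the difference was 0.0349 points (edgeR adjusted p = 0.817). This alternative was chosen after the data were seen. That end (108204668) lies far from the start site used (108256607), so the value describes another place and not the Apoh start. Apoc2 decreased by 12.6 points (edgeR adjusted p = 0.00613) and Apoc4 decreased by 11.0 points (edgeR adjusted p = 0.0137).

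Apoc1 was not called, with a wild-type difference of −3.78 points between E14.5 liver and E10.5 embryo (edgeR adjusted p = 0.451), which was −9.26 points without wild-type E10.5 replicate 1 and 1.70 points without wild-type E10.5 replicate 2. Within 2 kb of its start site, Apoc1 was called in wild type (−10.4 points, edgeR adjusted p = 0.0182). Apoe was 2.67 points higher in wild-type liver (edgeR adjusted p = 0.0114), a direction that turned with the window of 2 kb on either side (−8.54 points) and with the mean of CpG percentages (−2.19 points). In mutants 8 of 10 members were lower in E14.5 liver than in E10.5 embryo (41.8% of all windows called lower, 56.0% in either direction), without Apoe and Apoc1, and Apoc1 differed by −2.53 points (edgeR adjusted p = 0.526), though by −13.9 points within 500 bp (0.0223) and −10.1 points within 2 kb (0.00820). Leaving out 1 library at a time moved the wild-type count of 9 members to between 6 and 9. Between E14.5 and E18.5 liver, 0 of 10 members passed edgeR's test in wild type (0.133% of windows) and 0 of 10 in mutants (0.0887%), whereas 2 members in wild type and 1 in mutants had an unadjusted p under 0.05, as had 3882 and 4835 of all windows.

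Tiles of 1 kb were then read across each cluster with 10 kb on either side. Of 45 tiles on chromosome 7, both mutants were more than 10 points on average above both wild types, without overlap, in 4 tiles at E10.5 (8.89%, beside 2.58% of 1198569 tiles of the genome), in 2 tiles in E14.5 liver (4.44%, beside 2.22%) and in 5 tiles in E18.5 liver (11.1%, beside 5.22%). Of 60 tiles on chromosome 9 the numbers were 0, 1 and 4 (0, 1.67 and 6.67%). Lower in mutants were 0 of the 105 tiles at E10.5 (0.407% of the genome's tiles), 0 in E14.5 liver (0.186%) and 1 in E18.5 liver (0.710%). Over both clusters the E18.5 count of 10 tiles was 6 without mutant replicate 1, the library that stood apart, and 20 without mutant replicate 2. Higher in all 3 tissues was 1 tile of the 105, from 20277001 to 20278000, which holds most of exon 1 and exons 2 and 3 of Apoc1, against 0.143% of the genome's tiles. Its mean difference over the tissues was 26.3 points, and 0.00509% of the genome's tiles had a larger one.

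The 2 tiles next upstream of Apoc1 were shifted in embryos and not in either liver by this measure, and the 2 tiles on its other side, within the gene, in E18.5 liver alone. Of the latter, the tile from 20276001 (10 CpGs) differed by −0.18 points in embryos, 8.48 points in E14.5 liver and 10.8 points in E18.5 liver, and the tile from 20275001 (8 CpGs) by −1.36, 2.93 and 16.6 points. In E18.5 liver the wild types of the tile from 20276001 had 62.0 and 65.2 %mCG. Mutant replicate 1, the library that stood apart, had 79.2 %mCG there, and mutant replicate 2 had 69.7 %mCG. The tile from 20278001 differed by 24.7 points at E10.5 and by 8.98 and 7.20 points in E14.5 and E18.5 liver. The next tile, from 20279001, had 46.6 and 56.8 %mCG in wild-type and 66.3 and 66.7 %mCG in mutant embryos, a difference of 14.8 points, and differed by 4.7 points in E14.5 and 3.4 points in E18.5 liver. The tile after that, from 20280001 to 20281000 between Apoc1 and Apoe, had 57.5 and 57.3 %mCG in wild-type embryos but 1.6 and 1.2 %mCG in wild-type E14.5 liver and 1.8 and 5.0 %mCG in wild-type E18.5 liver over 11 CpGs. Mutants of this tile had 63.6 and 59.6, 2.5 and 1.2, and 5.1 and 5.3 %mCG in the same order. It was thus low in every liver of either genotype. At the start of Apoe, the tiles from 20283001 and from 20284001 had 0.1 to 5.0 %mCG in all 12 libraries.

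In the gene body of Apoe, the tile from 20282001 with 49 CpGs had 58.7 and 56.6 %mCG in wild-type and 68.6 and 67.7 %mCG in mutant E14.5 liver, and it was the second chromosome 7 tile counted at that stage. Its difference was 4.2 points in embryos and 2.4 points in E18.5 liver. Between wild-type tissues, 11 of 45 chromosome 7 tiles (24.4%) and 17 of 60 chromosome 9 tiles (28.3%) were more than 20 points lower in E14.5 liver than in E10.5 embryo, beside 43.7% of the genome's tiles, and 0 were higher (0.581%). Between E14.5 and E18.5 liver, 0 tiles of both clusters were higher (0.585%) or lower (0.0150%) by this measure. Over the end of the last exon of Apoa1 and the bases past it, the tile on chromosome 9 from 46038001, with 39 CpGs, had 2.0 to 7.5 %mCG in all libraries. The tile from 46080001, just past the end of Apoa5, had 67.7 and 57.0 %mCG in wild-type embryos and 11.5 and 12.8 %mCG in wild-type E14.5 liver.

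**Figure D4:**
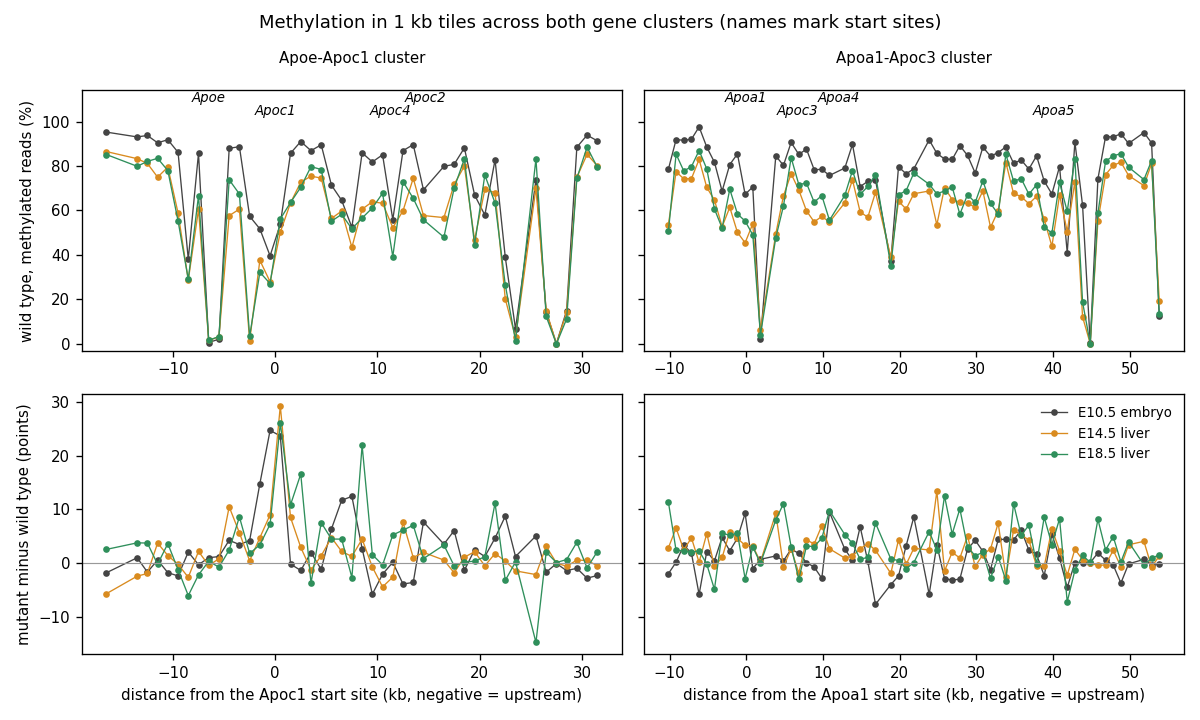
Mean wild-type methylation (%, top) and mutant minus wild-type difference (percentage points, bottom) in 1 kb tiles against the distance in kb from the Apoc1 start site (left) and the Apoa1 start site (right), with a line per tissue and gene names at start sites. In the lower left panel the Apoc1 tile stands high in all 3 tissues (23.6, 29.2 and 26.0 points), with its upstream neighbour as high in embryos (24.7 points), and in the upper left panel the Apoe start stays near 0 while the tile between Apoc1 and Apoe drops from 57.4 to 1.4% between embryo and E14.5 liver.

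Around the start sites of the other genes of the pathway, the windows were read in the same test between genotypes. Averaged over the tissues, 0 of 17 other apolipoproteins, 0 of 23 assembly and remodelling genes, 2 of 19 receptors and partners, 2 of 25 regulators, 1 of 9 neighbours on chromosome 7 and 0 of 8 on chromosome 9 were called by edgeR, beside 4.71% of all windows. In the same order 0, 2, 9, 8, 2 and 0 genes had an unadjusted p under 0.05, beside 19.2% of all windows. All 5 called were higher in mutants. Among them, named after their values were seen, Foxa3, a forkhead factor of hepatocytes, was higher by 4.03 points (edgeR adjusted p = 0.0326), Bcl3 by 3.74 points (0.0268) and Lsr, a lipoprotein receptor, by 1.30 points (0.0293). Each of these differences was smaller than that at Apoc1. In RNA none of these 3 passed, with log2 differences of 0.27 for Foxa3, 0.12 for Bcl3 and 0.34 for Lsr. Apoa4 and Apoa5, which had few or no counts in RNA, had start-site windows at 57.9 to 59.9 and 50.8 to 57.4 %mCG in E14.5 liver, close to the 51.3 to 60.7 %mCG of the highly expressed Apoa1.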

How the data were processed

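RNA was sequenced from 6 E14.5 livers and bisulphite-treated DNA from 12 embryos or livers; H3K4me1 data were not analysed here. The authors deposited raw counts per gene (TopHat, htseq-count without strand, Ensembl 67) and, per CpG, counts of methylated and unmethylated reads from Bismark alignments to mm9 carrying FVB variants, with duplicates removed and strands merged. The authors also deposited a percent methylated per CpG, rounded to whole numbers, which was not used. Expression was tested with edgeR 4.0.16 (filterByExpr, TMM, quasi-likelihood) in R 4.3.3. Reads of each CpG that every one of the 12 libraries covered 6 times or more were summed, methylated and unmethylated apart, 1 kb either side of the start of the transcript numbered 001, or else the lowest-numbered coding one (GENCODE vM1), and tested in 1 edgeR model with a term per library. The models were tested on simulated data. There the E14.5 genotype test called 6 and 12 of 50 windows with log2 odds of methylation changed by −1 and 1. At changes of −2 and 2 it called 45 and 48 of 50, so smaller differences could be missed. Windows and tiles needed 4 CpGs. The members and lists were chosen with earlier results of these data known. Named were the members, Rlf, Apoa4, Apoa5, list genes called in RNA, cluster neighbours and the 5 genes most correlated with Apoc1; Alb and Afp were added as defining liver transcripts, and Foxa3 and Lsr after their methylation values were seen. Same-numbered RNA libraries deviated together (r = 0.125, 0.226 and 0.409), so the replicate block is given beside those counts. Replicate 3 was the female of each genotype, so the number goes in part with sex. With sex as a covariate 208 genes were called by edgeR. The labels do not tie replicates to litters, except the littermate E14.5 WGBS livers, so p-values measure the spread between these samples. Counting errors do not include PCR duplication in RNA. Alternatives were DESeq2 1.42.0, other normalization, filters, coverage, windows, thresholds and each library left out. Some list genes and sequences are not reported here.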

Additional observations from a re-analysis of the deposited data

How the results depend on the processing

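In RNA, 197 genes were called by the main analysis, 532 with no filter on low counts, 460 with the replicate block, 256 with DESeq2 and 66 to 224 with 1 library left out (94 without wild-type replicate 1, 105 without wild-type replicate 3, and 66, 115 and 105 without mutant replicates 1, 2 and 3), and 1 to 2 members among them, Apoe being the member lost. In WGBS, the correlations of deviations of same-numbered libraries were 0.0679 at E10.5, 0.408 at E14.5, where the number also goes with sex, and −0.0323 at E18.5; the replicate block took the members called at E18.5 from 0 to 1 and moved no other member count in WGBS. The outermost 5′ end, an alternative chosen after seeing the data, and each tissue fitted alone also gave 1 member at E18.5. The E14.5 member call went to 0 with at least 1 read per CpG, within 500 bp and with each tissue alone. Leaving out 1 library gave 0 to 1 members in each tissue and 6 to 9 in wild-type E14.5 liver against embryo. The mean Apoc1 difference was 16.2 points within 2 kb, 26.7 points within 500 bp and 21.7 to 25.4 points with 1 library left out. With thresholds of 15 and 30 points, 2, 1 and 3 cluster tiles in place of 4, 3 and 10 were shifted by genotype at E10.5, E14.5 and E18.5 and 7 in place of 28 by wild-type stage. With 1 library left out the counts were 5 to 10, 3 to 5, 6 to 20 and 23 to 33, moved most at E10.5 without wild-type replicate 2 (7) or mutant replicate 1 (10), at E14.5 without mutant replicate 2 (5) and at E18.5 without mutant replicate 1 (6) or 2 (20). Differences that changed sign were uncalled, other than the stage differences of Apoe and Apoh. Averaged over tissues, Apoc3 turned to −1.02 points (500 bp), Apob to −0.983 (2 kb) and Apom to 0.254 (2 kb). With 1 library left out Apoe ran from −0.138 to 0.645, Apoa2 from −0.645 to 2.19, Apob from −0.271 to 1.92 and Apom from −1.61 to 0.382. The window at the outermost 5′ end of Apoc2 gave −1.95 points. That end (20266772) lies beside the Apoc4 start site (20266765). The window is thus nearly that of Apoc4 and does not describe the Apoc2 start site used (20263290). Between wild-type E14.5 liver and embryo, Apoe turned to −8.54 (2 kb) and −2.19 (mean of CpG percentages), and Apoc1 ran from −9.26 to 1.70 with 1 library left out. At the outermost 5′ end of Apoh, a place far from the start site used, the difference was 0.0349. Between livers, Apoc1 turned to −2.59 in wild type (500 bp) and ran from −0.504 to 9.36 in wild type and from −1.26 to 1.72 in mutants with 1 library left out. For changes other than those at the moved windows of Apoc2 and Apoh, the cause was not tested. Windows with 9 to 14 CpGs (Apoa2, Apoh, Apoc4, Apoc2) and the few reads of Apoc3 limit what could be detected. The average over tissues could not be had for each tissue fitted alone, and the mean of CpG percentages gave values without a test.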
